A study of Mus musculus with 9 samples.

Results

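Arg1, Defb14, Duoxa1, Lypd5 and Pigr are 5 of the 13336 genes measured in tracheal myoepithelial cells with and without forced Lef1 expression. They were chosen by their measured values, as genes of epithelial barrier defence whose level was lower in the Lef1KI libraries. The direction and size of their difference between the groups are therefore given as a description, without a test. Tests are given for other genes of the same processes, which are not among the 5. Those genes were also listed with earlier results of these data known, so their tests are not independent of the choice.

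RNA was measured by stranded mRNA sequencing in 5 Lef1KI and 4 WT libraries of mouse cells. Lef1KI cells came from mice with the genotype ACTA2-CreERT2:Lef-1KI+/+, and WT cells from ACTA2-CreERT2:ROSA-TG mice. Both lines thus carry a tamoxifen-inducible Cre under the promoter of smooth muscle actin, and mice of both lines were given tamoxifen daily over the 5 days that preceded harvest. Each library is a pool of gland cells from 3 to 5 mice, grown to passage 1. Every culture held the kinase inhibitor Y-27632 at 10 µM, and DMH-1 (against BMP signalling), A83-01 (against TGF-beta signalling) and the GSK3 inhibitor CHIR 99021, which activates Wnt/beta-catenin signalling, at 1 µM each. Lef1KI cells were sorted as GFP-negative and WT cells as GFP-positive, so gate and genotype cannot be told apart in any comparison. The sources used here do not give the age, sex or strain background of the mice.

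Surface epithelia of the airway, mouth and skin defend themselves with secreted and membrane-bound products. Beta-defensins are cationic peptides that kill microbes. Dual oxidases release hydrogen peroxide at the apical surface, which peroxidases use to make antimicrobial oxidants, and they need a maturation factor to leave the endoplasmic reticulum. The polymeric immunoglobulin receptor carries IgA and IgM across the cell into secretions, arginase breaks down arginine, the substrate of nitric oxide synthases, and proteins with Ly6/uPAR domains sit on the cell surface. Many of these genes are known from luminal or stratified cells rather than from the contractile myoepithelial cells that wrap glands.

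Values are TPM, a gene's share of all transcripts corrected for length, so levels of different genes can be compared. The median log2(TPM + 1) of a library was 3.76 to 3.97 in Lef1KI and 3.58 to 3.84 in WT, and 11465 to 12135 genes reached 1 TPM. The knocked-in gene Lef1 averaged 227 ± 79.8 TPM in Lef1KI, against 0.448 ± 0.0763 TPM in WT (SD; 5 and 4 libraries). Marker genes of basal cells were high, summing to between 16646 and 18472 TPM in Lef1KI and between 13012 and 19765 TPM in WT (8 of 8 measured, 1 called lower, Ngfr). Of 8 contractile markers 5 were measured, summing to 39.7 to 122 TPM in Lef1KI and 99.0 to 182 TPM in WT, while Cnn1, Actg2 and Oxtr are not among the genes analysed here. Of that sum Acta2, which was not called, gave 30.1 to 106 TPM in Lef1KI and 83.2 to 176 TPM in WT. Among the other contractile markers Mylk was called higher and Synm lower. Fibroblast markers summed to 326 to 1075 TPM in Lef1KI and to 76.1 to 139 TPM in WT, and 9 of 10 were called higher. Endothelial markers summed to 19.8 to 58.0 TPM in Lef1KI and to 3.15 to 5.92 TPM in WT, with 6 of 7 measured genes called higher. Of the called genes, Pecam1, Cdh5, Kdr, Plvap and Emcn passed the filter described below only through Lef1KI. Their calls are therefore no independent support. Luminal and secretory markers (6 of 10 measured, none called) summed to 284 to 1335 TPM in Lef1KI and 441 to 896 TPM in WT, and ciliated markers (3 of 6 measured, 1 called lower) to 6.54 to 13.9 TPM in Lef1KI and 7.51 to 22.4 TPM in WT. A gene is said to be called, to have risen or to have fallen at a limma adjusted p under 0.05. By that threshold 6.73% of all genes were called higher and 1.24% lower, the shares to set beside these marker counts. In bulk RNA, fewer cells of a type and less RNA per cell cannot be told apart. The part of the fibroblast and endothelial genes in the differences below was not tested.

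All 5 genes were lower in every Lef1KI library than in every WT library. Over all 13336 genes, 1.89% had every Lef1KI library below every WT library and 1.24% were called lower, but nothing is read from this for the 5 genes, because the same contrast chose them. The ratio of mean TPM, Lef1KI over WT, was 0.118 for Arg1, 0.191 for Defb14, 0.201 for Duoxa1, 0.244 for Lypd5 and 0.298 for Pigr. On the log2(TPM + 1) scale the differences of Arg1 (−2.49), Defb14 (−2.32), Lypd5 (−2.29) and Duoxa1 (−2.22) were close to each other, and they stood at ranks 20, 26, 28 and 31 from the lowest of all genes. Pigr, at −0.63, stood at rank 378. The pseudocount of 1 compresses the difference of a gene near 1 TPM, but Pigr also had the smallest drop by ratio of mean TPM. With a pseudocount of 0.1 its difference was −1.53, against −2.28 (Duoxa1) to −2.65 (Arg1) for the others. The authors' table keeps a gene if its mean reaches 3 SD in at least 1 group. All 5 passed that filter in WT, and 2 of them (Lypd5 and Pigr) did not reach 3 SD in Lef1KI, so these passed only through the group in which they are high. The same holds for 6 of the called genes named below (Lyz2, Tnfsf13b, Postn, Ccl11, Klk7 and Eno1b). It also holds for other calls that enter the counts: the endothelial markers Pecam1, Cdh5, Kdr, Plvap and Emcn, the basal marker Ngfr and the squamous gene Klk6. Their place in the table rests on the group in which they are high, so their calls and counts of fits are no independent support.

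**Figure D1:**
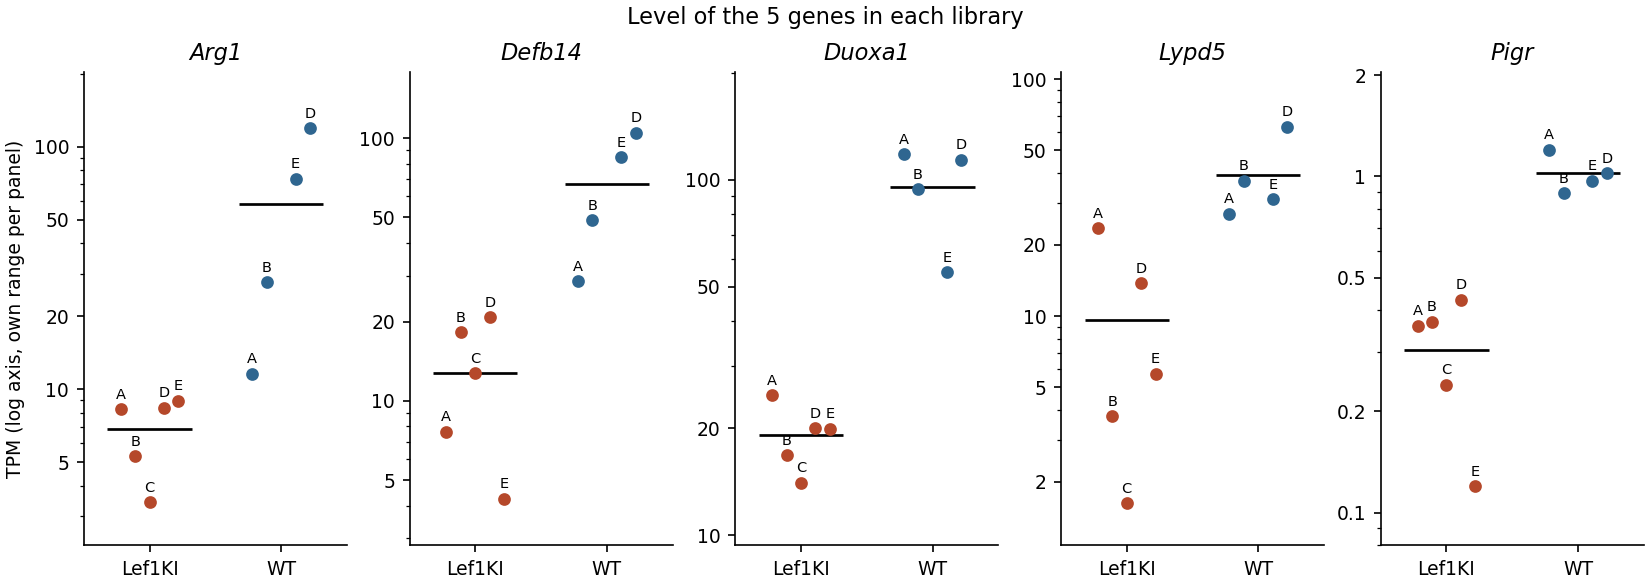
TPM of Arg1, Defb14, Duoxa1, Lypd5 and Pigr in each library, on a log axis with its own range per panel; points are libraries marked by their letter and lines are group means. Lef1KI points lie below WT points in each panel, with the narrowest gap for Lypd5 (Lef1KI A at 23.5 TPM, WT A at 27.0 TPM) and the widest for Duoxa1 (24.8 TPM in Lef1KI A, 54.9 TPM in WT E).

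The 5 genes lie on 5 different chromosomes, so they share no locus. In GENCODE M21 on mm10, Arg1 (ENSMUSG00000019987) lies on chromosome 10 from 24915221 to 24927484 on the minus strand, and Defb14 (ENSMUSG00000046354) on chromosome 8 from 19194357 to 19195212 on the plus strand. Duoxa1 (ENSMUSG00000027224) lies on chromosome 2 from 122302191 to 122313730 on the minus strand. Lypd5 (ENSMUSG00000030484) lies on chromosome 7 from 24349196 to 24355109, and Pigr (ENSMUSG00000026417) on chromosome 1 from 130826684 to 130852249, both on the plus strand. All are annotated as protein-coding. The Duoxa1 gene overlaps its paralog Duoxa2 on the other strand over 695 bases, and its start lies 1942 bases from that of Duox1, the oxidase it serves, which is transcribed the other way. The start of Arg1 lies 135 bases from that of the divergent non-coding gene Gm36172. Strandedness of the library prep is stated in the labels, but no source used here says whether counting used the strand.

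RefSeq promoter windows of 300 bases (250 before and 50 after the start, build GRCm38.p6) were found for 3 of the 5 genes, Duoxa1, Lypd5 and Pigr. They are shown because Lef1 binds DNA through TCF/LEF words and the genes differ together between the groups, and the window of Duox1 is added as that of the neighbour described below. Duoxa1 is at chr2:122313681-122313980 on the minus strand, Lypd5 at chr7:24348946-24349245, Pigr at chr1:130826434-130826733 and Duox1 at chr2:122315422-122315721, all on the plus strand. Each is written 5′ to 3′, and capitals mark a match to a searched word.
Duoxa1: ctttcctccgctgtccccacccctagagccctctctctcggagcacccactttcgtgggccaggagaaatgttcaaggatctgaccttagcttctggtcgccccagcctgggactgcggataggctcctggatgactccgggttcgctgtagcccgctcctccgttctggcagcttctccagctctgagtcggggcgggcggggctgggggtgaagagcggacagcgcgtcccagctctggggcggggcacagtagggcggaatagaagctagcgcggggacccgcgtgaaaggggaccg
Lypd5: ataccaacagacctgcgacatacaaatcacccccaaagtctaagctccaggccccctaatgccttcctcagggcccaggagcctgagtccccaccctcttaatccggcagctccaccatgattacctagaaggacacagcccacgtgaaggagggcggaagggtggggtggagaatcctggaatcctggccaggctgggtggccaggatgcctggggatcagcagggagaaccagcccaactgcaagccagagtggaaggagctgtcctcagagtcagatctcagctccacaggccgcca
Pigr: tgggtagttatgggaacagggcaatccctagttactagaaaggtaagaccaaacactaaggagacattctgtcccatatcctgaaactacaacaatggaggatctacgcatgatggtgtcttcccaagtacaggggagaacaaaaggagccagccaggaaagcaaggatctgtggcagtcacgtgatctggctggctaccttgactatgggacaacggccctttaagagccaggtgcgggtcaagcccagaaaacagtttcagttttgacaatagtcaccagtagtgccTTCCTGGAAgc
Duox1: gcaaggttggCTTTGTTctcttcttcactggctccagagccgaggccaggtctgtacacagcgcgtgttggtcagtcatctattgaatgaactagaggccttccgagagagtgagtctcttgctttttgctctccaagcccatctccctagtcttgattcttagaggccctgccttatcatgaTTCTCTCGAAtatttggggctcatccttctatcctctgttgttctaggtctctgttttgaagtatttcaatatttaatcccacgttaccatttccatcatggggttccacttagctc

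The words searched on both strands for TCF/LEF were CTTTGAA and also CTTTGAT, then CTTTGTA and lastly CTTTGTT. The others were TGACTCA and also TGAGTCA for AP-1, a consensus for NF-kB, TTCNNNGAA for STAT3, the same ends with 1 more base between them for STAT6, and TATAAA for the TATA box. No TCF/LEF, AP-1, NF-kB, STAT6 or TATA word was found in the 3 windows of Duoxa1, Lypd5 and Pigr. Over all 32851 windows, 16.9% held a TCF/LEF word, 5.20% an AP-1 word, 5.56% an NF-kB word, 8.30% a STAT3 word, 6.95% a STAT6 word and 13.6% TATAAA. The Pigr window held 1 STAT3 word, TTCCTGGAA, which begins 40 bases into the gene and matches the searched word on both strands. The Duox1 window held a TCF/LEF word, CTTTGTT, that begins 240 bases before the start, and a STAT6 word that begins 67 bases before it. None of these matches overlapped another. The windows also differed in base composition, with 65.7% G and C for Duoxa1, 59.7% for Lypd5, 49.0% for Pigr and 46.7% for Duox1, against a median of 52.7% over all windows. A match is a stretch of letters and not a shown site.

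Duoxa1, the maturation factor that brings the dual oxidase Duox1 to the cell surface, was the most highly expressed of the 5 genes in both groups. In Lef1KI, A to E stood at 24.8, 16.8, 14.1, 19.97 and 19.92 TPM, and in WT, the values for A, B, E and D were 118, 94.0, 54.9 and 114 TPM. The means were 19.1 ± 4.002 TPM in Lef1KI and 95.3 ± 28.9 TPM in WT (SD over 5 and 4 libraries). The groups were furthest apart for this gene: the lowest WT library had 2.22 times the TPM of the highest Lef1KI library. Among all genes the mean level stood at the 58.1st percentile in Lef1KI and at the 90.5th in WT.

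Duox1, the hydrogen peroxide producing oxidase itself, differed less. In Lef1KI, A to E stood at 5.94, 5.09, 9.57, 5.94 and 14.2 TPM, against 14.4, 15.9, 11.6 and 16.9 TPM in WT libraries A, B, E and D. The groups overlapped, through Lef1KI E. The log2 difference was −0.85 (SE 0.265, limma adjusted p 0.0781), which did not pass the threshold. It did pass without Lef1KI E (−1.06, limma adjusted p 0.0118), with each library centred on its median (−1.01, limma adjusted p 0.0270) and with trimmed-mean scaling (−1.01, limma adjusted p 0.0261). The TPM of Duoxa1 over that of Duox1 was 2.74 ± 1.24 in Lef1KI libraries (range 1.405 to 4.17) and 6.41 ± 1.46 in WT libraries (range 4.75 to 8.21), a ratio that shares the choice of Duoxa1 and is given as a description. Duox2 and its maturation factor Duoxa2, the other pair of this locus, are not among the genes analysed here.

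Of 21 listed genes of NADPH oxidases and peroxidases besides Duoxa1, 7 were measured, and their median log2 difference was 0.48, beside 0.14 for all genes. The lactoperoxidase gene Lpo, whose enzyme uses the hydrogen peroxide of dual oxidases, was the 1 called gene. It rose to 1.18 ± 0.570 TPM in Lef1KI, against 0.323 ± 0.0568 TPM in WT (log2 difference 0.69, limma adjusted p 0.0267), a low level in both groups. The call held in 4 of the 9 fits that each leave out 1 library (the leave-one-out fits), and under neither scaling (each library centred on its median, or scaled by a trimmed mean). Over all genes 7.97% were called, 6.73% higher and 1.24% lower.

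Defb14, a beta-defensin of mouse epithelia, had 7.64, 18.3, 12.8, 20.8 and 4.24 TPM in Lef1KI libraries A to E. In WT, the values for A, B, E and D were 28.5, 48.8, 84.8 and 105 TPM. The spread within each group was wide, 4.90-fold between the lowest and highest Lef1KI library and 3.68-fold between those of WT. The means were 12.7 ± 6.96 TPM in Lef1KI and 66.7 ± 34.4 TPM in WT (SD over 5 and 4 libraries), and the lowest WT library had 1.37 times the TPM of the highest Lef1KI library.

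The only other beta-defensin gene of the list that was measured, Defb1, went the other way. Defb1 encodes a defensin known for steady expression in epithelia. In Lef1KI, A to E stood at 76.0, 99.0, 62.4, 81.6 and 60.0 TPM, and in WT, the values for A, B, E and D were 38.7, 41.5, 34.8 and 36.1 TPM. Every Lef1KI library lay above every WT library. Defb1 rose by a log2 difference of 0.97 (SE 0.151, limma adjusted p 0.00333), and the call held in all 9 leave-one-out fits and under both scalings. As a description, Defb14 had 0.163 ± 0.0760 times the TPM of Defb1 in Lef1KI libraries and 1.81 ± 1.02 times in WT libraries. The neighbour Defb4, which starts 4349 bases from Defb14, is not among the genes analysed here.

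Other secreted antimicrobial genes were mixed. Of 36 listed, 16 were measured, and 4 rose and 1 fell, beside 6.73% and 1.24% of all genes. The median log2 difference was 0.52, beside 0.14 for all genes. Lyz2, the lysozyme of macrophages and airway cells, rose to 7.96 ± 3.37 TPM in Lef1KI, against 1.38 ± 1.16 TPM in WT (log2 difference 1.95, limma adjusted p 0.00731), and passed the 3 SD filter only through Lef1KI. Rnase4, a secreted ribonuclease gene, rose to 137 ± 45.8 TPM in Lef1KI, against 60.4 ± 6.88 TPM in WT (log2 difference 1.10, limma adjusted p 0.0169). Its call ended without WT E. The iron-scavenging lipocalin gene Lcn2, named after its value was seen, was the other called rise, at 1417 ± 410 TPM in Lef1KI and 742 ± 186 TPM in WT, with overlapping groups (limma adjusted p 0.0463). S100a7a, a psoriasin-type calcium-binding protein gene, fell to 1.54 ± 0.801 TPM in Lef1KI, against 8.69 ± 4.77 TPM in WT (log2 difference −1.76, limma adjusted p 0.0264), with overlapping groups and a call kept in 2 of the 9 fits, those without Lef1KI A or WT A. The count of called genes in this list was 2 without WT E and 3 without Lef1KI B, C or D or WT B.

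Lypd5, a Ly6/uPAR domain gene of stratified epithelium whose function is little known, had the widest spread within Lef1KI. In Lef1KI, A to E stood at 23.5, 3.77, 1.62, 13.8 and 5.72 TPM, a 14.5-fold range, against 27.0, 37.2, 31.2 and 62.9 TPM in WT libraries A, B, E and D. The means were 9.67 ± 8.98 TPM in Lef1KI and 39.6 ± 16.1 TPM in WT (SD over 5 and 4 libraries). The groups did not overlap but came close, the lowest WT library having 1.15 times the TPM of Lef1KI A.

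Of 35 other Ly6/uPAR family genes, 14 were measured, 10 of them with negative differences, and the median was −0.15, beside 0.14 for all genes. Psca, the prostate stem cell antigen gene, was the 1 called gene of the 14, where 7.97% of all genes were called. In Lef1KI, A to E stood at 52.4, 7.20, 5.21, 19.5 and 9.40 TPM, and in WT, the values for A, B, E and D were 24.6, 155, 309 and 645 TPM. The groups overlapped, because Lef1KI A exceeded WT A. Psca fell, with a log2 difference of −3.57 (SE 0.874, limma adjusted p 0.0313). Of the 9 leave-one-out fits the call held in 2, without Lef1KI A and without WT A, and the difference ranged from −4.47 to −2.92 over the 9. Lypd3, a close relative that marks suprabasal keratinocytes, averaged 58.8 ± 22.6 TPM in Lef1KI and 88.3 ± 36.3 TPM in WT (log2 difference −0.55, limma adjusted p 0.333). Ly6d, a marker of stratified epithelium, averaged 157 ± 57.2 TPM in Lef1KI and 243 ± 83.0 TPM in WT (log2 difference −0.64, limma adjusted p 0.239). Slurp1 is not among the genes analysed here.

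Arg1 encodes arginase, the enzyme that splits arginine into ornithine and urea. Libraries A to E of Lef1KI stood at 8.29, 5.29, 3.42, 8.40 and 8.99 TPM, against 11.6, 27.6, 73.9 and 119 TPM in WT libraries A, B, E and D. The Lef1KI libraries were close together and the WT libraries were not, with a 2.63-fold range in Lef1KI and a 10.3-fold range in WT. The means were 6.88 ± 2.41 TPM in Lef1KI and 58.1 ± 48.6 TPM in WT (SD over 5 and 4 libraries). WT A had 1.29 times the TPM of the highest Lef1KI library, and without WT A the log2 difference was −3.08, against −2.49 with all libraries. Arg1 is also known from macrophages. Of 12 leukocyte and macrophage markers 5 were measured: Adgre1 had at most 0.20 TPM in Lef1KI and 0.01 TPM in WT, and Itgam at most 0.350 TPM in Lef1KI and 0.360 TPM in WT. Of the other measured markers, Lyz2 and Cd14 were called higher in Lef1KI, and Cd68 had a log2 difference of −1.18 (limma adjusted p 0.136). The list summed to 69.5 to 253 TPM in Lef1KI and to 115 to 264 TPM in WT. Of that sum Cd68, a lysosomal gene, gave 45.5 to 239 TPM in Lef1KI and 110 to 259 TPM in WT. The part of such cells in the difference of Arg1 was not tested. Ptprc, Csf1r, Fcer1g, Tyrobp, Mrc1, Cd3e and Cd79a are not among the genes analysed here.

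Of 33 other listed genes of arginine and polyamine metabolism, 29 were measured and 1 was called, beside 7.97% of all genes, and 6 had an unadjusted p under 0.05. Their median log2 difference was 0.16, beside 0.14 for all genes. Arg2, the mitochondrial arginase gene, had 1.84, 3.33, 4.18, 1.31 and 2.06 TPM in Lef1KI libraries A to E and 2.41, 7.29, 5.44 and 7.41 TPM in WT libraries A, B, E and D. Its difference of −0.88 (SE 0.311, limma adjusted p 0.117) did not pass the threshold with all libraries and did without WT A (−1.17, limma adjusted p 0.0267). Ass1, which makes the precursor from which arginine is rebuilt, averaged 330.4 ± 29.98 TPM in Lef1KI and 329.5 ± 45.1 TPM in WT (log2 difference 0.01, SE 0.115, limma adjusted p 0.969). Odc1, which turns ornithine into putrescine, averaged 346 ± 140.2 TPM in Lef1KI and 314 ± 42.3 TPM in WT (log2 difference 0.07, SE 0.247, limma adjusted p 0.892). The inducible nitric oxide synthase gene Nos2 reached at most 0.520 TPM in Lef1KI and 0.440 TPM in WT (limma adjusted p 0.774). Slc7a2, a transporter of cationic amino acids, averaged 15.7 ± 7.54 TPM in Lef1KI and 7.73 ± 2.84 TPM in WT (log2 difference 0.88, limma adjusted p 0.171). Oaz2, a gene of antizyme that holds Odc1 activity down, rose by 0.75 (limma adjusted p 0.0473), in a call kept in 1 of the 9 leave-one-out fits, the one without Lef1KI A, and under neither scaling.

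**Figure D2:**
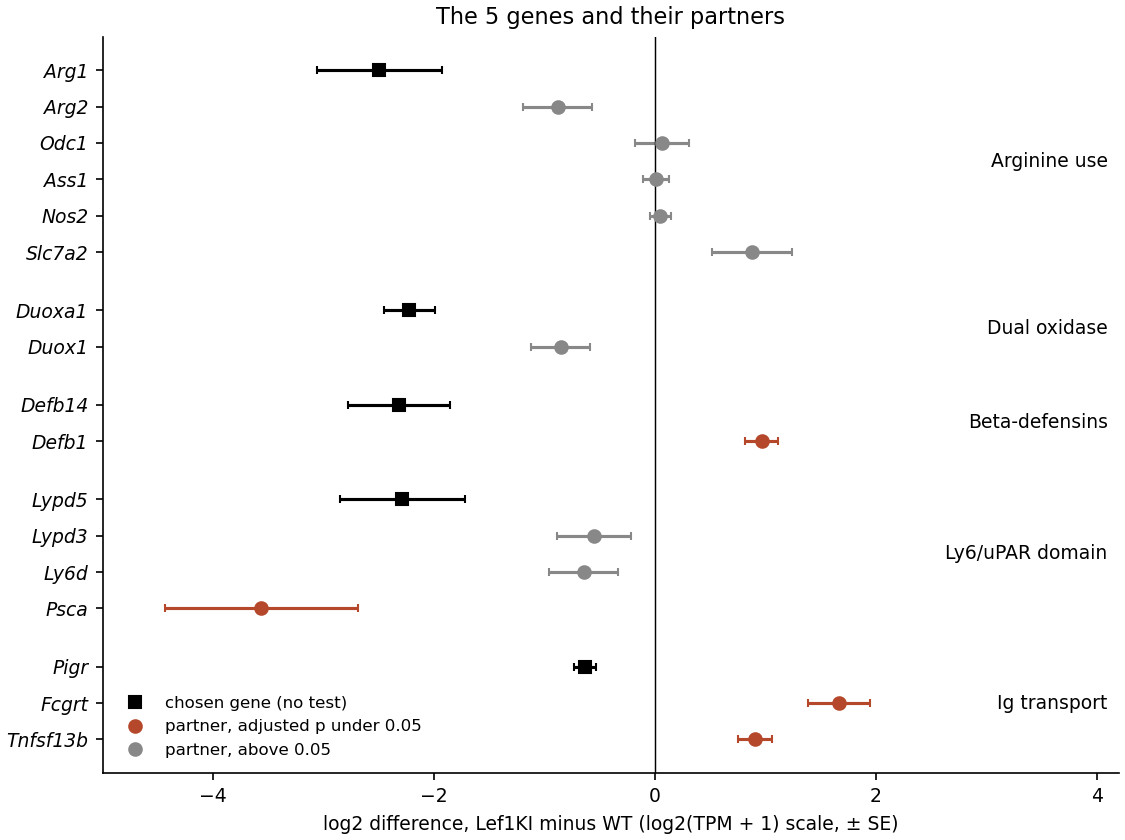
Log2 difference (Lef1KI minus WT, ± SE) of the 5 chosen genes (squares, no test) and of genes of the same process (circles, red where called), ordered by process from top to bottom. Duoxa1 at −2.22 stands beside Duox1 at −0.85, Defb14 at −2.32 beside Defb1 at 0.97, and Arg1 at −2.49 beside Odc1 and Ass1 near 0. Psca, Fcgrt and Tnfsf13b are shown because they were called. Other called genes of these lists are not drawn: Oaz2 (0.75) of the arginine list and Lpo (0.69) of the oxidase list. Lyz2, Rnase4, Lcn2 and S100a7a of the antimicrobial list are not drawn either.

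Pigr, the receptor that carries IgA and IgM through epithelial cells, was near the lower end of detection. Libraries A to E of Lef1KI stood at 0.360, 0.370, 0.240, 0.430 and 0.120 TPM, against 1.20, 0.890, 0.970 and 1.02 TPM in WT libraries A, B, E and D. The mean level stood at the 2.90th percentile of all genes in Lef1KI and at the 12.4th in WT. The means were 0.304 ± 0.124 TPM in Lef1KI and 1.02 ± 0.131 TPM in WT (SD over 5 and 4 libraries), with WT libraries close together. The lowest WT library had 2.07 times the TPM of the highest Lef1KI library. With a pseudocount of 0.1 in place of 1, the difference of Pigr was −1.53 in place of −0.63.

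Of 22 other genes of immunoglobulin transport and transcytosis, 17 were measured and 2 rose, beside 6.73% of all genes. Their median log2 difference was 0.02 (−0.14 under either scaling), beside 0.14 for all genes. Fcgrt, the neonatal Fc receptor that carries IgG, rose to 28.0 ± 10.6 TPM in Lef1KI, against 7.69 ± 1.66 TPM in WT (log2 difference 1.67, SE 0.280, limma adjusted p 0.0048). Tnfsf13b, which encodes the B cell survival factor BAFF, rose to 1.08 ± 0.468 TPM in Lef1KI, against 0.0900 ± 0.0753 TPM in WT (log2 difference 0.90, limma adjusted p 0.00502). Each had every Lef1KI library above every WT library and kept its call in all 9 leave-one-out fits, but Tnfsf13b passed the 3 SD filter only through Lef1KI. The fibroblast markers given above were higher in the same libraries. Jchain, whose product joins the immunoglobulins that Pigr carries, is not among the genes analysed here.

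Cytokine pathways that are known to induce such defence genes in epithelia had positive median differences. Of 24 genes of the IL-17, IL-22 and IL-36 response, 18 were measured, and 3 rose and 1 fell, beside 6.73% and 1.24% of all genes. Their median log2 difference was 0.29, beside 0.14 for all genes. It was 0.13 under either scaling, where that of all genes was −0.02 and −0.01. Ccl20, a chemokine with antimicrobial activity, rose by 2.20 (limma adjusted p 0.0330) and the neutrophil growth factor gene Csf3 by 2.44 (limma adjusted p 0.0347). The receptor subunit gene Il17rc rose by 0.58 (limma adjusted p 0.0363) and Il20ra, a subunit of receptors for IL-20 family cytokines, fell by 0.82 (limma adjusted p 0.0351). These calls held in 3, 2, 3 and 3 of the 9 leave-one-out fits. No gene of the list was called without Lef1KI C or without WT B, D or E, 1 without Lef1KI B and 2 without Lef1KI E. In the full fit 6 of its genes had an unadjusted p under 0.05. Under median centring 2 were called.

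Type 2 cytokines are the known inducers of Arg1 in macrophages. Of 24 genes of that response 11 were measured and 3 rose, beside 6.73% of all genes. Their median log2 difference was 0.45, beside 0.14 for all genes. It was 0.29 under either scaling, where that of all genes was −0.02 and −0.01. Postn, a matrix protein gene that is also a fibroblast marker, rose by 1.96 (limma adjusted p 0.00145) and the eotaxin gene Ccl11 by 2.38 (limma adjusted p 0.00247), both in the table only through Lef1KI. Tslp, an epithelial alarmin gene, rose by 3.64 (limma adjusted p 0.0389) in a call kept in 1 of the 9 fits, the one without Lef1KI A.

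Genes of squamous differentiation and the cornified envelope, with which Lypd5 is known to be expressed in skin, mostly had negative differences. Of 42 listed genes, 36 were measured and 29 had negative differences, with a median of −0.64, beside 0.14 for all genes. Of the 36, 6 fell and 1 rose, beside 1.24% called lower and 6.73% called higher over all genes. Klk7, a protease that sheds cornified cells, fell to 2.87 ± 2.32 TPM in Lef1KI, against 18.0 ± 5.72 TPM in WT (log2 difference −2.46, limma adjusted p 0.00452), a call kept in all 9 leave-one-out fits, of a gene that passed the 3 SD filter only through WT. Klk6, another of the 6 falls, also passed that filter only through WT. Crct1, a gene of the epidermal differentiation complex, fell by 2.34 (limma adjusted p 0.0194) and kept its call in 6 of the 9 fits. The epithelial transcription factor gene Elf3 fell to 29.3 ± 11.6 TPM in Lef1KI, against 94.6 ± 51.5 TPM in WT (log2 difference −1.58, limma adjusted p 0.0254, held in 4 of the 9 fits). The desmosomal cadherin gene Dsc1 rose by 0.63 (limma adjusted p 0.0400) at under 1 TPM on average, in a call kept in 2 of the 9 fits. The number of called genes in this list depended on the library left out: 13 without WT A, 3 without Lef1KI B, C or D, 2 without WT B, and 1 without WT D or WT E.

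**Figure D3:**
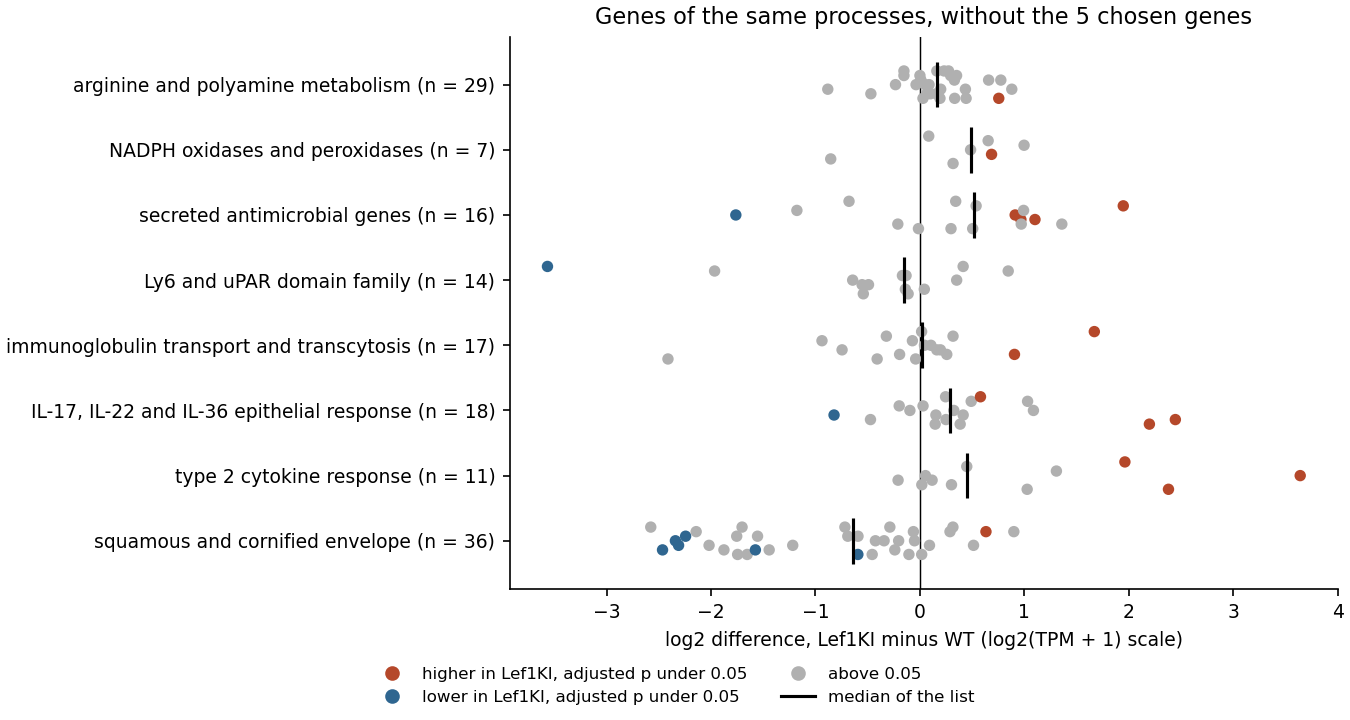
Log2 difference (Lef1KI minus WT) of each measured gene in 8 lists of related processes, without the 5 chosen genes; red points were called higher, blue points lower, grey points neither, and the bar is the list's median. Medians run from −0.64 for the squamous list to 0.52 for secreted antimicrobial genes.

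The 5 genes were all lower in Lef1KI but did not share one order of libraries within the groups. In WT, Arg1 and Defb14 had the same order of libraries, A lowest, then B, E and D. Duoxa1 was highest in WT A and lowest in WT E, and Pigr was highest in WT A and lowest in WT B. Lypd5 was lowest in WT A and highest in WT D. In Lef1KI, Arg1, Duoxa1 and Lypd5 were all lowest in library C, whereas Defb14 and Pigr were lowest in library E. Lef1KI D had all 5 genes above the mean of its group, WT D had all 5 above, and Lef1KI C had 1 above, Defb14. Counted by pair of genes, the libraries in which both lay on the same side of their group mean ranged from 2 of 9 for Defb14 and Duoxa1 to 7 of 9 for Arg1 and Lypd5 and for Lypd5 and Pigr.

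**Figure D4:**
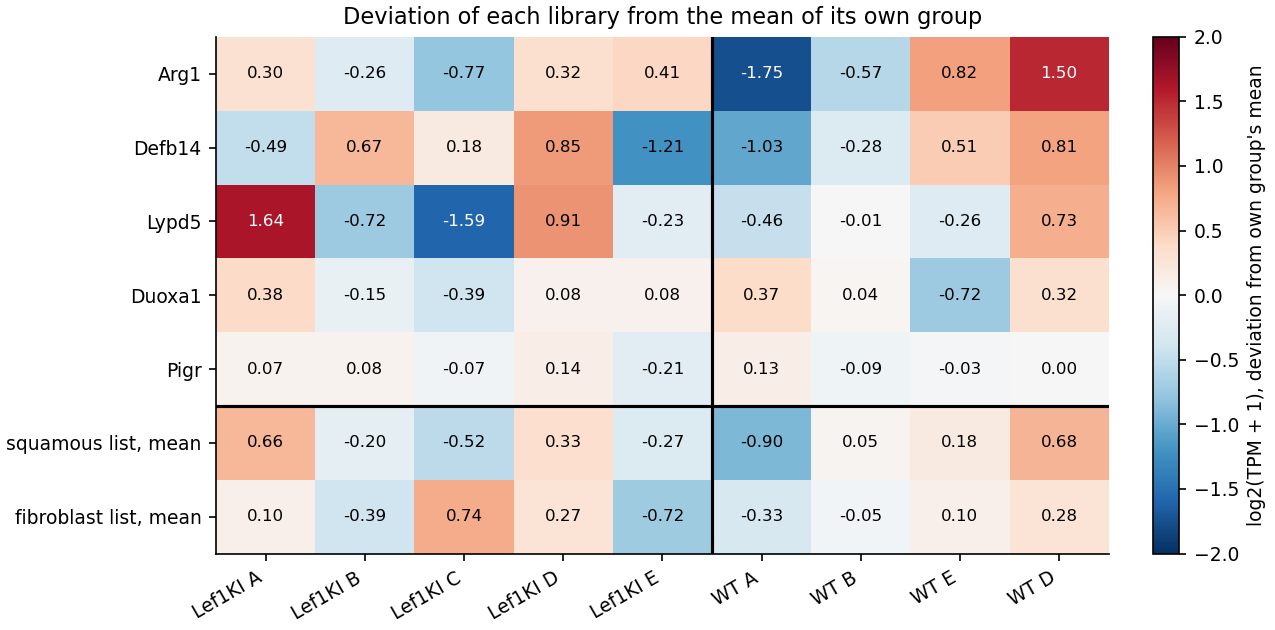
Deviation of each library from the mean of its own group, in log2(TPM + 1) units, for the 5 genes and for the mean of the squamous and fibroblast lists; Lef1KI libraries are left of the vertical line and WT libraries right of it. WT A is lowest for Arg1 (−1.75) and for the squamous list (−0.90) but is highest for Duoxa1 (0.37). Lef1KI A is highest for Lypd5 (1.64), for Duoxa1 (0.38) and for the squamous list (0.66).

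The squamous list varied across the same libraries. Its mean log2(TPM + 1) was 5.80, 4.93, 4.61, 5.46 and 4.86 in Lef1KI A to E, and 5.14, 6.09, 6.21 and 6.72 in WT A, B, E and D. WT A lay below 2 of the Lef1KI libraries, A and D. The order of the WT libraries in this mean is that of Arg1 and Defb14, and the highest and lowest Lef1KI libraries, A and C, are those of Lypd5 and Duoxa1. Duoxa1 and Pigr had their highest WT value in WT A, where the squamous mean was lowest of the WT libraries. The fibroblast list's mean was highest in Lef1KI C, at 5.97, where Arg1, Duoxa1 and Lypd5 were lowest, and lowest in Lef1KI E, at 4.52, where Defb14 and Pigr were lowest. The part of either list in the differences of the 5 genes was not tested.

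The genes whose pattern over the 9 libraries was most like the average of the 5 were ranked among 6376 other genes that lay above the median level and had a descriptive symbol. Likeness was the root-mean-square difference between standardised values, 0 for an identical pattern, and its median over the ranked genes was 1.57. The closest were Mospd2, a membrane contact site gene (0.297), the protease gene Klk7 (0.307), the transcription factor gene Hlf (0.363), the enolase copy Eno1b (0.366), the kinase gene Mapk3, also known as ERK1 (0.371), and the cyclin gene Ccng2 (0.381). The 5 genes themselves, each a part of that average, lay between 0.319 for Pigr and 0.427 for Defb14. The likeness holds mainly between the groups: relative to the mean of each group, the same 6 genes stood at 0.706 (Klk7) to 1.26 (Eno1b) from the average of the 5. On that measure the 5 genes themselves stood at 0.543 (Lypd5) to 0.969 (Duoxa1). Hlf averaged 10.6 ± 2.44 TPM in Lef1KI and 22.8 ± 5.57 TPM in WT, and Ccng2 averaged 9.98 ± 2.17 TPM in Lef1KI and 17.2 ± 1.06 TPM in WT. Eno1b is nearly identical in sequence to Eno1, so its reads could be split between them and its values are uncertain.

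Over the 8 lists, 148 of 237 genes were measured, of which 15 rose (10.1%) and 9 fell (6.08%), beside 6.73% and 1.24% of all genes. The squamous list alone held 6 of the 9 falls and 1 of the 15 rises. The other falls were S100a7a, Psca and Il20ra, whose calls were kept in 2, 2 and 3 of the 9 leave-one-out fits. The balance of all called genes depended on scaling: 898 were higher and 165 lower as deposited (84.5% higher), 605 and 332 with each library centred on its median (64.6%), and 596 and 310 with trimmed-mean scaling (65.8%). Over all genes the median difference stood at 0.14 on the log2 scale as deposited, at −0.02 with median centring and at −0.01 with trimmed-mean scaling.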

How the data were processed

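The deposited table holds log2(TPM + 1) values of 9 libraries. RSEM and build mm10 are named in the submitters' processing notes, without a version, aligner or annotation. Turned back to TPM, 100% of the values below 50 TPM were whole hundredths, within 0.01 of 1 hundredth, and each library summed to 99.6% to 99.84% of the full TPM scale, as expression deposited in log2 units with a pseudocount of 1 would. Every gene has a mean of 3 SD or more in at least 1 group, by the values, which is the filter of the deposited table. TPM keeps no read counts, so depth is unknown, no count test was possible and errors are the spread among libraries. Columns carry letters that no label ties to the replicate numbers, so columns were assigned to groups by name. No batch is given. No library pair had more than 92 genes with exactly equal deposited values, zeros included. Each library is a pool of mice, so p-values measure the spread between pools.

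All 13336 genes were fitted with limma 3.58.1 in R 4.3.3 (limma-trend, group as the only term, two-sided, Benjamini-Hochberg adjustment over all genes), which was tested on simulated data. The 5 genes, the 8 lists of related genes, the marker lists and the rule for named genes were chosen with earlier results of these data known. The rule names 14 partners (9 measured), up to 3 called genes per list and direction, and the 6 genes most like the average of the 5. Positions are from GENCODE M21, in which 13280 gene IDs (99.6%) were found. Alternatives were a pseudocount of 0.1, only genes with a mean of at least 1 TPM in a group, centring each library on its median, scaling by a trimmed mean (trim 30%), no intensity trend, leaving out each library and, added after seeing the data, a block by column letter.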

Additional observations from a re-analysis of the deposited data

Results flagged for a closer look

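Each of the 33 genes tested for an outlying library was examined in both groups, 66 groups in all, and a library standing far from the others of its group was found in 3, where chance gives about 1 in 20. S100a7a had 2.95 TPM in Lef1KI A, above the other Lef1KI libraries, and 1.87 TPM in WT A, below the other WT libraries. Postn had 10.9 TPM in Lef1KI C, above the other Lef1KI libraries. None of the 5 chosen genes had such a library.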

How the results depend on the processing

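Depth is unknown, so no counting error can be given, and levels near 1 TPM such as those of Pigr depend on the pseudocount. The cause of the changes below was not tested. No label says what the column letters shared by the groups (A, B, D and E) mean. Deviations from the group means correlated over all genes at −0.26 for A, 0.02 for B, 0.26 for D and −0.15 for E, and only the D libraries correlated best with their own letter, a hint from the data and not the design, so the letters were not taken to pair the libraries. A fit with the letter as a replicate block, chosen after seeing the data, left 3 residual degrees of freedom and gave 437 genes higher and 47 lower. In the lists it called 0 genes for arginine, 0 for oxidases, 3 for antimicrobial genes, 0 for Ly6, 1 for immunoglobulin transport, 0 for IL-17 and 2 for squamous genes, and 3 for type 2 cytokines as without it.

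Called genes as deposited were 898 higher and 165 lower. Median centring gave 332 lower, and trimmed-mean scaling 596 higher and 310 lower. Without 1 library the counts ran from 565 (without WT E) to 1416 (without Lef1KI A) higher and from 63 (without WT E) to 270 (without Lef1KI A) lower. In the lists, called genes without 1 library ranged from 0 to 2 for arginine and polyamine metabolism, 0 to 3 for NADPH oxidases and peroxidases, 2 to 5 for secreted antimicrobial genes, 0 to 2 for the Ly6 and uPAR family, 2 to 3 for immunoglobulin transport, 0 to 5 for the IL-17, IL-22 and IL-36 response, 2 to 4 for type 2 cytokines and 1 to 13 for the squamous list. The arginine list had 0 called genes under both scalings and without the intensity trend, and the Ly6 list 2 under both scalings. The oxidase list had 2 with the filter on low values and 2 without the trend, and the IL-17 list 2 under median centring.

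Log2 differences of the chosen genes without 1 library ran from −3.08 to −1.99 for Arg1, −2.66 to −2.02 for Defb14, −2.46 to −2.10 for Duoxa1, −2.70 to −1.89 for Lypd5 and −0.67 to −0.58 for Pigr. Pigr was at −0.79 under both scalings and at −1.53 with a pseudocount of 0.1. Differences near 0 changed sign: Odc1 was −0.094 with median centring, −0.090 with trimmed-mean scaling and −0.14 to 0.24 without 1 library. Nos2 was −0.11 under both scalings and −0.0072 to 0.10 without 1 library, and Ass1 −0.15 under both scalings and −0.065 to 0.079 without 1 library.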

Other observations

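Some genes outside the chosen 5 had a wide range among the WT libraries in the order A, B, E, D that Arg1 and Defb14 show. These were picked after their values were seen. Klk14, a kallikrein protease gene of stratified epithelium, had 62.1, 14.0, 8.04, 26.5 and 5.47 TPM in Lef1KI A to E and 7.22, 170.5, 241 and 325 TPM in WT A, B, E and D. Mal, a gene of apical membrane transport, had 42.8, 7.5, 3.53, 11.1 and 12.8 TPM in Lef1KI A to E and 10.7, 59.3, 123 and 208 TPM in WT A, B, E and D. Ly6g6c, a Ly6 family gene, had 71.7, 13.1, 8.56, 32.4 and 16.5 TPM in Lef1KI A to E and 23.7, 79.5, 144 and 204 TPM in WT A, B, E and D. For each, WT A fell within the range of the Lef1KI libraries, and the groups overlapped, with limma adjusted p-values of 0.161 for Klk14, 0.102 for Mal and 0.108 for Ly6g6c, above the threshold. The related gene Mal2 had the same WT order, with 32.8 TPM in WT A, below every Lef1KI library.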
